A study of Antheraea pernyi with 6 samples.

Results

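The odorant receptor coreceptor and the sensory neuron membrane proteins are membrane proteins of the insect olfactory sensillum, and 3 genes named for them were followed here among the 16458 genes measured in the antennae of adult oak silkmoths (Antheraea pernyi). They were taken by their identifiers in the deposited table. GWHGABGR013501 has as best protein hit putative chemosensory receptor 2 of the same species, the older name of the coreceptor Orco, and the mosquito identifier AGAP002560 as symbol. GWHGABGR005182 has a partial sensory neuron membrane protein 2 of Antheraea polyphemus as best hit, and GWHGABGR000255 has sensory neuron membrane protein 2 of the hawkmoth Manduca sexta. The values compared came from 6 mRNA libraries, 3 labelled female and 3 labelled male, with no strain, age or treatment given. The labels do not say whether the libraries of a sex are separate animals or pools, so each p-value speaks only of how these libraries vary, part of which could be technical.

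Most insect odorant receptors do not work alone. They assemble with Orco, a conserved subunit that carries no odorant specificity of its own in the species studied, into ion channels in the dendrite of the olfactory neuron, and Orco is also needed to bring the receptors to the ciliary membrane in Drosophila. Sensory neuron membrane proteins belong to the CD36 family of lipid-handling membrane proteins, which also includes scavenger receptors of class B and the phagocytic receptor croquemort. In moths, SNMP1 is known from pheromone-sensitive neurons, where its Drosophila counterpart is needed for the response to a fatty pheromone, and SNMP2 is known mainly from the supporting cells around those neurons. No gene of the table has SNMP1 as the name of its best hit.

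The labels and some genes whose level often differs by sex go against each other, so directions are given as between labels throughout. Pheromone-binding protein 1 (GWHGABGR012196), of a family of carriers that is often higher in male moths, ranged from 90139 to 94059 FPKM in the libraries labelled female and from 1179 to 1359.9 in those labelled male. Pheromone-binding protein 3 (GWHGABGR012195) stood at 11729 ± 248 against 1082 ± 28 FPKM (SD, n = 3), while another gene named pheromone-binding protein 1 (GWHGABGR012197) was at 361 ± 11.3 against 473 ± 30.3 and general odorant-binding protein 2 (GWHGABGR012194), caught by the same search, at 11568 ± 297 against 17546 ± 789. Vitellogenin (GWHGABGR020830), the yolk protein precursor, had 0 reads in the libraries labelled female and 29 in those labelled male, a gene named here after its values were seen. It stood at only 0.16, 0.274 and 0.139 FPKM in male replicates 1, 2 and 3, too low to be tested. The vitellogenin receptor (GWHGABGR018313) lay the other way, at 1.39 ± 0.185 against 0.627 ± 0.396 FPKM (SD, n = 3, limma adjusted p = 0.0912). Exchanged labels and a difference between the sexes cannot be told apart. FPKM is a read level scaled to gene length and library size. Levels can be set beside each other between genes as far as the gene models are complete. Library totals recovered from the FPKM steps lay between 9392242 and 11180175 reads. A gene was called when limma, run on log2(FPKM + 1) over 11590 genes with a mean of at least 0.5 FPKM, gave a Benjamini-Hochberg adjusted p under 0.05. A log2 fold change below 0 is a higher level under the female label.

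The 3 genes spanned the range from among the most abundant transcripts of the antenna to the edge of detection. GWHGABGR005182 ranked between 77 and 94 of 16458 genes in every library, and the coreceptor ranked between 387 and 396 in the libraries labelled female and between 812 and 833 in those labelled male. GWHGABGR000255 ranked between 10059 and 12049. This order, with GWHGABGR005182 first, the coreceptor next and GWHGABGR000255 last, held in all 6 libraries with no overlap between neighbours. The first of them held between 0.378% and 0.483% of all reads of a library. The coreceptor held between 0.0238% and 0.0642%.

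The coreceptor was clearly higher in the libraries labelled female. It stood at 458, 467 and 469.6 FPKM in female replicates 1, 2 and 3 and at 176, 174 and 177 FPKM in male replicates 1, 2 and 3. The 2 sets lie far apart, and within each the libraries are nearly equal. The means were 465 ± 5.9 and 176 ± 1.58 FPKM (SD, n = 3), a 2.64-fold higher level under the female label. The log2 fold change was -1.40 (95% confidence interval -1.48 to -1.32, limma adjusted p = 1.43e-08). Behind these values were 21024 reads under the female label and 6841 under the male label, on a recovered gene length of 1368 bases. The coefficient of variation between libraries was 1.27% and 0.896%, where counting of reads alone gives 1.19% and 2.09%. Among the 1212 genes with a mean of at least 100 FPKM the median was 3.29% and 3.69%. Of 11590 tested genes, 1.51% had a lower log2 fold change than the coreceptor.

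The abundant sensory neuron membrane protein gene, GWHGABGR005182, was also higher in the libraries labelled female, by a much smaller step. It stood at 3036, 3043 and 3046 FPKM in the female replicates and at 2427, 2467 and 2385 FPKM in the male replicates. All 3 of the first set lie above all of the second. The means were 3042 ± 5.49 and 2427 ± 41.4 FPKM (SD, n = 3), 1.25-fold apart, with a log2 fold change of -0.33 (95% confidence interval -0.38 to -0.27, limma adjusted p = 1.1e-05). The size of this difference depended on the scaling of the libraries, since the median of all tested genes lay at 0.23 on the deposited scale and at 0.02 after median-of-ratios rescaling. The log2 fold change became -0.58 after that rescaling (adjusted p = 5.04e-07) and -0.12 with quantile normalization (adjusted p = 0.0128), so its direction and call were the same on all 3 scales. The coreceptor gave -1.66 and -1.44 on those 2 scales. The libraries labelled female differed from each other by 0.18% in this gene, where counting alone gives 0.434%, and those labelled male by 1.7%, where counting gives 0.523%.

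The second sensory neuron membrane protein 2 gene, GWHGABGR000255, was barely detected and showed no difference that could be told from the spread. It stood at 0.88, 0.386 and 0.696 FPKM in the female replicates and at 1.03, 0.393 and 0.514 FPKM in the male replicates, and the sets overlap almost completely. These values rest on 18, 8 and 14 reads and on 18, 7 and 9 reads. The coefficient of variation was 38.2% under the female label and 52.6% under the male label, where counting alone gives 27.4% and 29.7%. The log2 fold change was -0.01 (95% confidence interval -0.56 to 0.53, limma adjusted p = 0.969) on a scale that understates changes of low genes. Pooled over libraries, the 40 reads under the female label and 34 under the male label gave a ratio of 1.01 after correction for library totals, with an exact 95% interval of 0.625 to 1.65 that covers counting error only. A difference within that interval was not detectable at this depth. The recovered length of 1853 bases is the shortest that gives whole reads, so the true reads could be a multiple of these and the interval narrower.

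**Figure D1:**
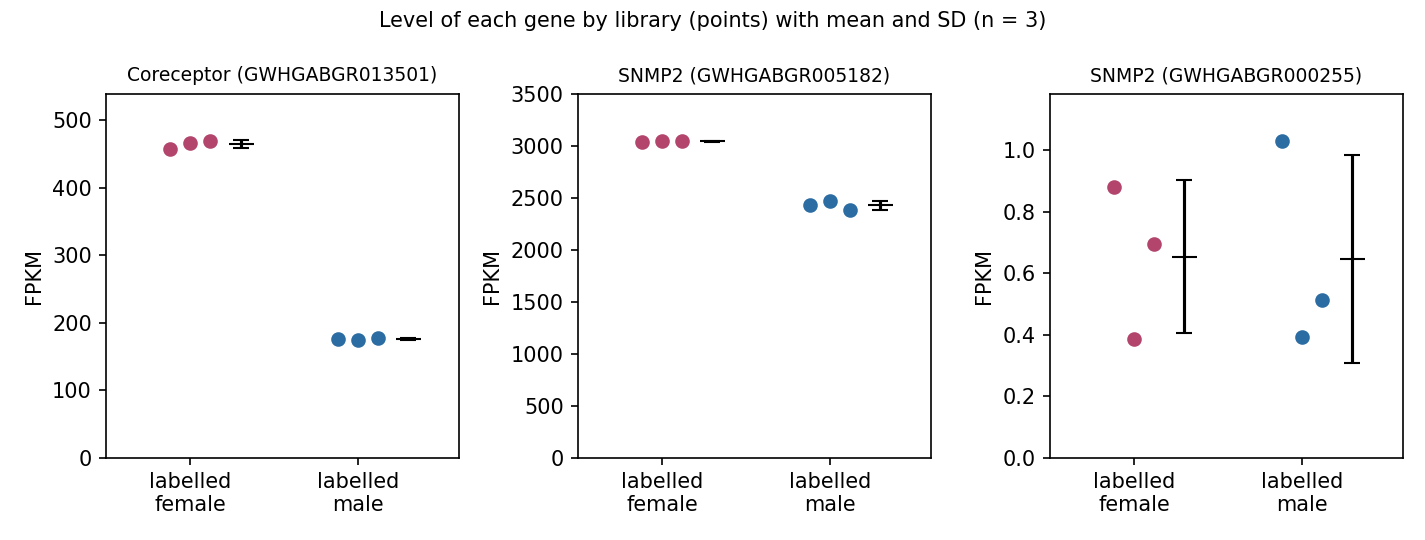
FPKM of the coreceptor and of both SNMP2 genes (SNMP2 is sensory neuron membrane protein 2) in each library, 1 panel per gene with its own axis from 0; points are libraries and the bars give mean and SD (n = 3). The coreceptor drops from 465 to 176 FPKM and the abundant SNMP2 gene from 3042 to 2427 between labels, while the low SNMP2 gene overlaps below about 1.03 FPKM.

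So 2 of the 3 genes were called higher under the female label and 0 under the male label. Of all tested genes, 36.9% were called in either direction and 9.03% higher under the female label. After median-of-ratios rescaling 32% were called and 17.7% were higher under the female label, and with quantile normalization 28.7% and 14.6%. Libraries labelled female all lay above those labelled male in the same 2 genes and in 12.1% of tested genes. The opposite order, which 0 of the 3 genes showed, was found in 37.9%. In bulk tissue, fewer cells of a type and less RNA per cell cannot be told apart.

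**Figure D2:**
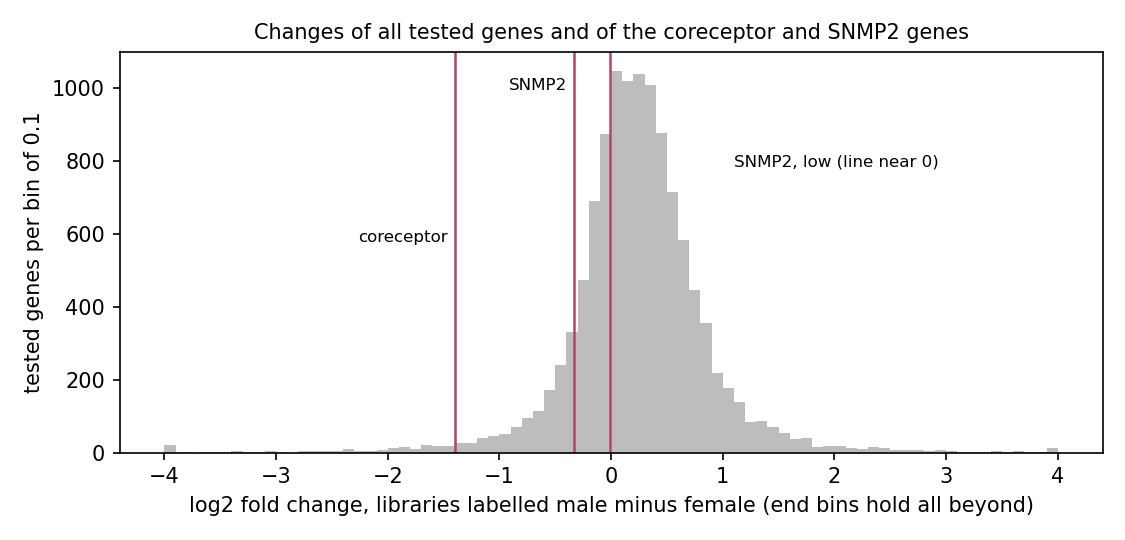
Number of tested genes (y axis) by log2 fold change in bins of 0.1 (x axis, male label minus female label), with vertical lines at the coreceptor (-1.40), the abundant SNMP2 gene (-0.33) and the low SNMP2 gene (-0.01). The bulk of genes sits to the right of 0, with a median of 0.23, and the coreceptor lies in the thin left tail.

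The coreceptor and the abundant SNMP2 gene thus stood in a different proportion under the 2 labels. The ratio of coreceptor to GWHGABGR005182, which a single scaling factor per library leaves as it is, was 0.151, 0.153 and 0.154 in the female replicates and 0.0725, 0.0706 and 0.0743 in the male replicates. The log2 ratio differed by -1.08 between labels (-2.71 ± 0.02 against -3.79 ± 0.04, SD, n = 3). The 2-sided exact permutation p was 0.1, the smallest that 3 libraries against 3 allow, and 0.1 after adjustment over the 3 ratios tested.

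Odorant receptors, the ligand-binding partners of the coreceptor, were taken by name, 49 genes of which 3 are named gustatory and odorant receptors. Of the 44 tested, 11 were called higher under the female label, 17 were called higher under the male label and 16 were not called, and after median-of-ratios rescaling these were 11, 12 and 21. Their median log2 fold change was 0.50, beside 0.23 over all tested genes. Among all tested genes, 9.03% were called higher under the female label and 27.8% under the male label. After that rescaling these shares were 17.7% and 14.3%.

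The summed level of the receptors was carried by very different genes under the 2 labels. It was 1573, 1611 and 1625 FPKM in the female replicates and 247, 232 and 215 FPKM in the male replicates. Olfactory receptor 1 of this species (GWHGABGR000138) made up between 70.3% and 72.3% of that sum under the female label, at 1105, 1141 and 1174 FPKM, and was listed at 0, 0.528 and 0 FPKM under the male label. A partial putative odorant receptor (GWHGABGR021060) added 262, 266 and 259 FPKM under the female label and 0.278, 0.815 and 0.414 under the male label. Without these 2 genes, the sum of the other receptors was 205, 203 and 192 FPKM in the female replicates and 247, 231 and 215 in the male replicates. Both genes were already known to differ between labels when the coreceptor was set beside them.

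Read against the sum of all receptors, the coreceptor was lower under the female label, and read against the receptors without olfactory receptor 1 it was higher. The ratio of coreceptor to summed receptors was 0.291, 0.29 and 0.289 in the female replicates and 0.712, 0.749 and 0.824 in the male replicates, a log2 difference of 1.39 (2-sided exact permutation p = 0.1, the smallest possible). Without olfactory receptor 1 the ratios were 0.98, 0.995 and 1.04 against 0.712, 0.751 and 0.824, and the difference reversed to -0.40 (exact permutation p = 0.1). Without GWHGABGR021060 as well, an alternative chosen after its level was seen, the ratios were 2.23, 2.3 and 2.44 against 0.713, 0.754 and 0.825, a difference of -1.61. Against the median of the tested receptors, olfactory receptor 1 included, the difference was -1.97 (exact permutation p = 0.1). The direction of the coreceptor relative to its partners thus depended on whether olfactory receptor 1 was counted and on whether a sum or a median was used.

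In single libraries, olfactory receptor 1 was the 1 receptor above the coreceptor under the female label. The coreceptor stood there at 0.415, 0.409 and 0.4 of its level. The recovered length of olfactory receptor 1 was 394 bases, against 1368 for the coreceptor, so its model may be a fragment of a gene. Recovered lengths are the shortest that give whole reads. The length behind its FPKM and its share of the receptor sum could therefore also be a multiple of 394. At 394 bases it had 4803, 5028 and 5021 recovered reads, beside the coreceptor's 6915, 7138 and 6971. With a longer true length its reads would be more, so which of these genes had more reads is not settled. Under the male label 0 receptors exceeded the coreceptor. The highest receptor there was at 25, 19.6 and 20.5 FPKM in replicates 1, 2 and 3, and the coreceptor stood at 7.04, 8.89 and 8.64 times that level. Those were 3 different genes, GWHGABGR013978, GWHGABGR008833 and GWHGABGR010755, with recovered lengths of 213, 202 and 1047 bases. Apart from the 2 dominant genes, the most abundant receptors over all libraries were a partial olfactory receptor 20 (GWHGABGR011421, 37.8 ± 2.27 against 0.362 ± 0.364 FPKM, SD, n = 3), another of that name (GWHGABGR011412, 31.8 ± 0.797 against 4.3 ± 0.594) and GWHGABGR008833, a partial olfactory receptor 50 (7.17 ± 1.24 against 18.8 ± 3.8). The largest changes towards the male label were in GWHGABGR013978 (0 reads under the female label, 19.7 ± 4.66 FPKM under the male label), GWHGABGR010755 (0.692 ± 0.62 against 19.9 ± 1.76) and GWHGABGR021059 (listed at 0 under the female label, 11.5 ± 0.134 under the male label). At its shortest fitting length of 110 bases GWHGABGR021059 had 36 reads, and both the length and the reads could be larger.

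**Figure D3:**
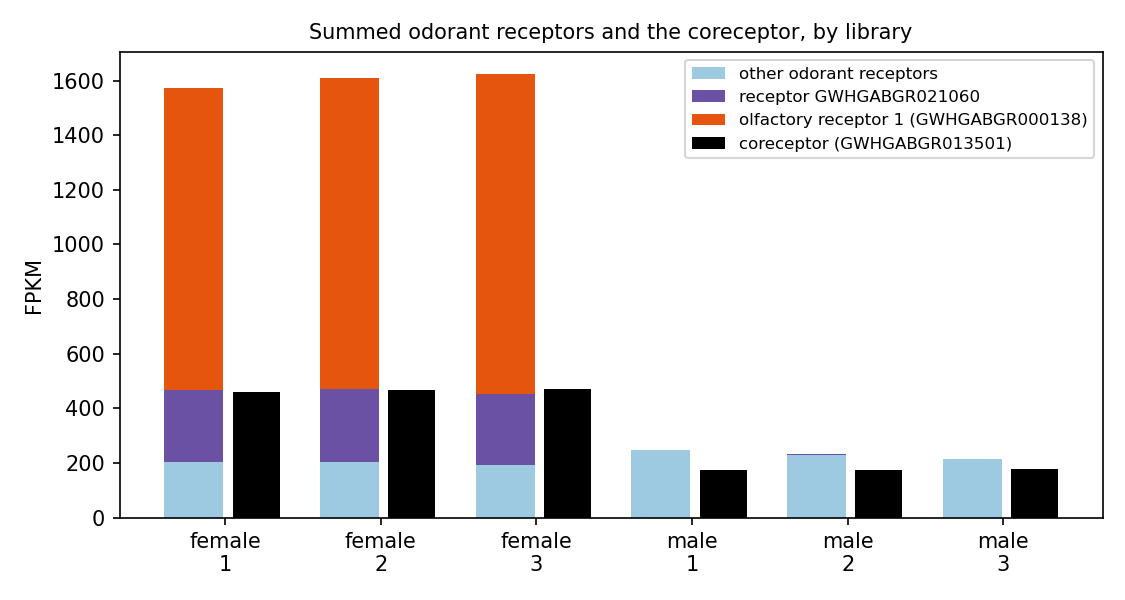
FPKM (y axis) in each library, with stacked bars for the odorant receptors and a black bar for the coreceptor beside them. Under the female label olfactory receptor 1 and GWHGABGR021060 lift the stack to between 1573 and 1625 FPKM, and under the male label the stack lies between 215 and 247 FPKM with the coreceptor at about 176.

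General markers of nerve cells were set beside the coreceptor. The neuron list held 23 genes, 20 of them tested, of which 1 was called higher under the female label and 8 under the male label, with a median log2 fold change of 0.37. Of all tested genes, 9.03% and 27.8% were called in these directions. After median-of-ratios rescaling 2 and 4 were called, with a median of 0.16, beside 17.7% and 14.3% of all tested genes. The list as matched by name includes 8 genes that are poor neuron markers, such as SNAP29. Without those 8, left out after values were seen, 1 and 5 of 14 were called on the deposited scale and 2 and 1 after rescaling. The summed level of all 23 ranged from 215 to 224 FPKM under the female label and from 258 to 274 FPKM under the male label, and after rescaling the ranges overlapped (231 to 244 and 234 to 247). The coreceptor stood at 2.1, 2.17 and 2.1 times that sum in the female replicates and at 0.641, 0.676 and 0.684 times in the male replicates, a log2 difference of -1.67 (2-sided exact permutation p = 0.1, the smallest possible). Without the 8 genes the difference was -1.58. The 2 most abundant markers, named after their values were seen, were ELAV-like protein 1 (GWHGABGR013959), an RNA-binding protein of neurons, at 82.9 ± 6.88 against 77.5 ± 6.59 FPKM (adjusted p = 0.414 in limma), and the voltage-gated sodium channel para (GWHGABGR016133), at 44.6 ± 0.862 against 53.5 ± 0.447 FPKM (log2 fold change 0.26, adjusted p = 0.0117 in limma). After median-of-ratios rescaling para lay at 0.00, and GWHGABGR013959 was called higher under the female label (-0.35, adjusted p = 0.0134 in limma). With quantile normalization GWHGABGR013959 was not called (-0.19, adjusted p = 0.137 in limma).

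Ionotropic receptors form the other large family of antennal receptors and have coreceptors of their own, of which Ir25a is the most widely used. Of the names searched (Ir25a, Ir8a and Ir76b), Ir25a alone was found, in 2 gene models. The abundant model (GWHGABGR003112) stood at 91.6, 93.4 and 82.2 FPKM in the female replicates and at 88.2, 94.4 and 92.7 in the male replicates, and the sets overlap. Its log2 fold change was 0.04 (95% confidence interval -0.11 to 0.19, limma adjusted p = 0.632), and -0.21 after median-of-ratios rescaling (adjusted p = 0.0358). The low model (GWHGABGR019950) stood at 1.44 ± 0.543 against 3.92 ± 1.88 FPKM (SD, n = 3). Its call at 0.97 (adjusted p = 0.0338 in limma) was lost after rescaling (adjusted p = 0.0741), without female replicate 2 (0.106) or 3 (0.0695) and without male replicate 1 (0.0933). The call was also lost with quantile normalization (0.14), without the filter (0.0747) and without the trend (0.0548). The difference between Orco and Ir25a was not tested.

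**Figure D4:**
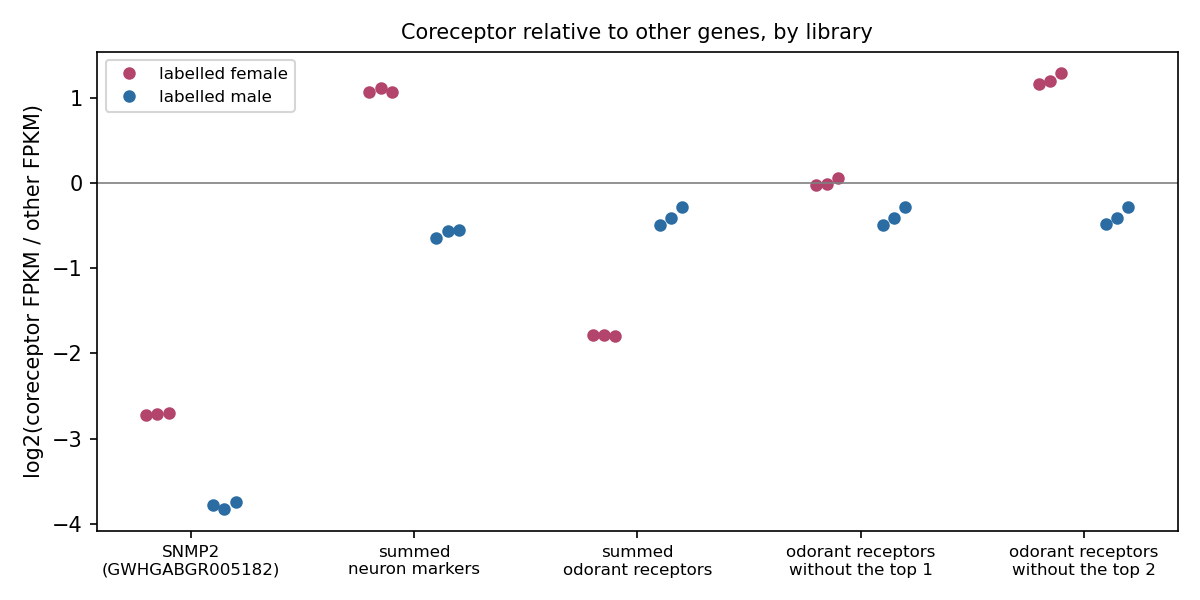
log2 ratio of the coreceptor's FPKM to that of other genes or sums (y axis) in each library, coloured by label. The libraries labelled female lie above those labelled male against SNMP2, neuron markers and the receptors without olfactory receptor 1, and below them against all receptors.

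The CD36 family, to which the sensory neuron membrane proteins belong, held 14 genes by name. In 10 genes the mean reached the minimum for testing, and the other 4 had between 2 and 8 reads over all libraries. Of those 10, 3 were called higher under the female label, 2 were called higher under the male label and 5 were not called, with a median of 0.20 beside 0.23 over all tested genes. The shares of all tested genes called were 9.03% in the first direction and 27.8% in the second. After median-of-ratios rescaling the counts were 4, 1 and 5, beside shares of 17.7% and 14.3%. GWHGABGR005182 alone made up between 93.6% and 94.2% of the summed FPKM of the family under the female label and between 96.4% and 96.7% under the male label. The other 13 genes together gave between 188 and 209 FPKM under the female label and between 83.9 and 89.4 under the male label.

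The most abundant gene of that remainder was one whose name is not that of a sensory protein. GWHGABGR001886, with scavenger receptor class B member 1-like of Bombyx mori as best hit, stood at 137, 159.7 and 144 FPKM in the female replicates and at 39.6, 39.9 and 41.6 in the male replicates. Each library labelled female was at more than 3 times the level of any labelled male. The means were 147 ± 11.6 and 40.3 ± 1.07 FPKM (SD, n = 3), 3.64-fold apart, with a log2 fold change of -1.84 (95% confidence interval -1.99 to -1.68, limma adjusted p = 1.96e-07), and -2.09 after median-of-ratios rescaling. Of the 14 genes, 3 carry the ontology term sensory perception of smell in the deposited table, namely GWHGABGR001886 and the 2 genes named sensory neuron membrane protein 2. The recovered length of GWHGABGR001886 was 522 bases, against 1587 for GWHGABGR005182, so the model may be a fragment of a gene. As the shortest length that gives whole reads, 522 bases could also fall short of the true length.

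The rest of the family moved both ways. A class B scavenger receptor (GWHGABGR011353) was higher under the female label at 22.9 ± 2.89 against 12.7 ± 0.804 FPKM (SD, n = 3), with a change of -0.80 and an adjusted p of 0.00102 in limma. The croquemort-like gene (GWHGABGR006369), whose Drosophila counterpart is a receptor for dying cells on blood cells, was higher under the male label at 3.08 ± 0.545 against 6.24 ± 1.35 FPKM (SD, n = 3), with a change of 0.82 and an adjusted p of 0.0119 in limma. Its call was lost with quantile normalization (0.50, adjusted p = 0.0948). Another class B scavenger receptor (GWHGABGR011468) was called at 0.92 (adjusted p = 0.0285 in limma), which was lost after median-of-ratios rescaling (0.0644), with quantile normalization (0.114), without the filter (0.0569), with the replicate number as a block (0.0504), without female replicate 2 (0.0855) or 3 (0.0909) and without male replicate 2 (0.0892) or 3 (0.0529). Among genes that were not called, GWHGABGR011352 stood at 8.69 ± 2.67 against 5.57 ± 1.14 FPKM, and was called on the median-of-ratios scale (-0.76, adjusted p = 0.041) and with quantile normalization (-0.86, adjusted p = 0.0273). The others were GWHGABGR006364 (9.54 ± 1.2 against 13.1 ± 2.65 FPKM), GWHGABGR011439 (1.4 ± 0.277 against 2.8 ± 1.18) and GWHGABGR001900 (0.91 ± 0.767 against 1.6 ± 0.422).

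A further pair of genes carries Snmp-1 as symbol, while the best hit has another name. GWHGABGR014195, whose best hit is xanthine dehydrogenase-like, stood at 55, 56.6 and 56.9 FPKM in the female replicates and at 19.7, 17.4 and 18.2 in the male replicates (log2 fold change -1.56, 95% confidence interval -1.74 to -1.38, limma adjusted p = 1.21e-06). GWHGABGR014193, whose best hit is a hypothetical protein, stood at 13.4, 13.3 and 13.7 FPKM in the female replicates and at 6.65, 9.24 and 7.54 in the male replicates (log2 fold change -0.73, 95% confidence interval -1.05 to -0.41, limma adjusted p = 0.00407). In both, all libraries labelled female lay above all labelled male, an order found in 12.1% of tested genes. Both carry the ontology term sensory perception of smell in the deposited table. The symbol and the best hit of GWHGABGR014195 contradict each other, so its place among the sensory neuron membrane proteins is unknown here. The best hit of GWHGABGR014193 has no name that goes with or against its symbol.

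**Figure D5:**
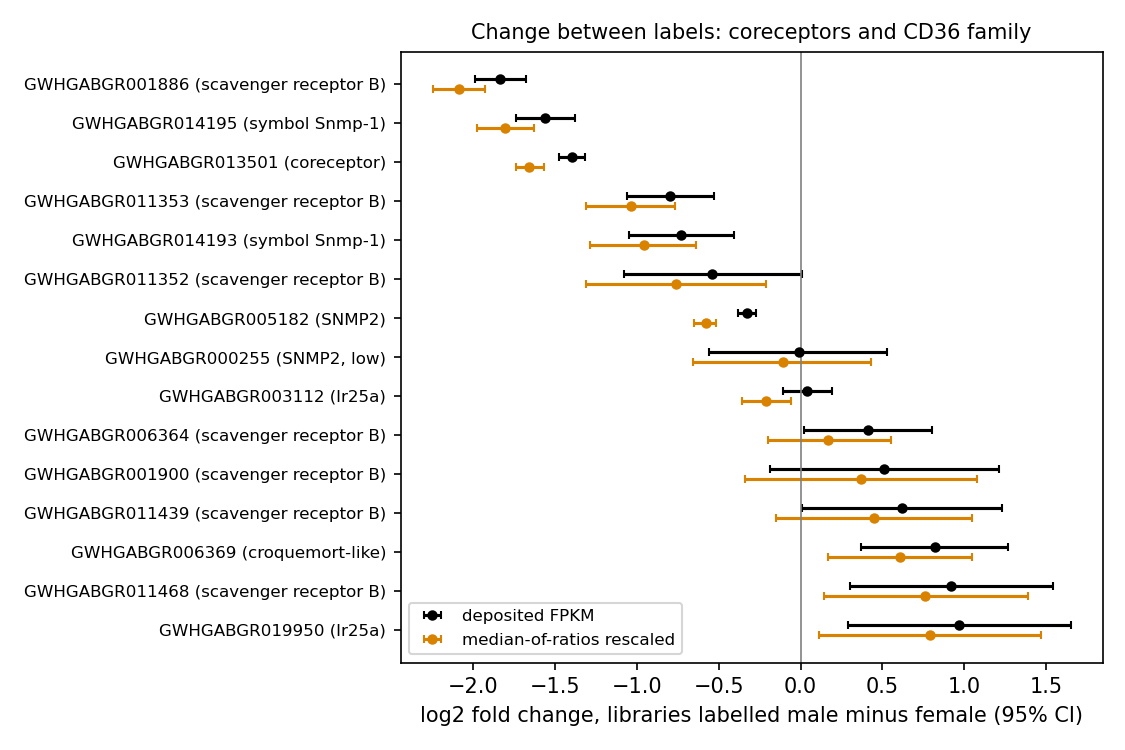
log2 fold change (x axis, male label minus female label) with 95% confidence intervals for the coreceptors, the tested CD36 family genes and the genes with Snmp-1 as symbol, for FPKM as deposited (black) and rescaled by median of ratios (orange). The coreceptor (-1.40), GWHGABGR014195 (-1.56) and GWHGABGR001886 (-1.84) lie furthest left, and rescaling shifts every gene further left.

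Genes with the profile most like that of each member were looked for among 5050 genes with a mean of at least 10 FPKM and a best hit. Likeness was the root mean square difference of centred log2(FPKM + 1) over the 6 libraries. Closest to the coreceptor was a maltase 1-like gene (GWHGABGR006593), with a difference of 0.0153. It stood at 938, 930.1 and 935 FPKM in the female replicates and at 352, 350 and 352 in the male replicates. Next were peroxiredoxin 1 (GWHGABGR014259, 0.0336), which removes peroxides, uncharacterized genes (GWHGABGR011505, 0.0445, and GWHGABGR012980, 0.0522), and a heat shock protein 70 of this species (GWHGABGR020687, 0.0539). None of these 5 has an odorant receptor or CD36 name. Most genes with such names had a mean below 10 FPKM and so were not compared. With few of them among the 5050 genes, their absence from the nearest 5 cannot tell whether they share the coreceptor's profile.

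Closest to GWHGABGR005182 were a chitinase-like protein EN03 (GWHGABGR000514, 0.0166), translation initiation factor 3 subunit H (GWHGABGR006709, 0.0168), pleiotropic regulator 1 (GWHGABGR005116, 0.0191), ribosomal protein P0 (GWHGABGR014311, 0.0197) and heat shock protein cognate 4 (GWHGABGR010770, 0.0209). Several of these are broadly used genes of translation and protein folding. Their log2 fold changes lay between -0.34 and -0.31, and the chitinase-like gene moved to 0.00 with quantile normalization. For the barely detected GWHGABGR000255 the smallest difference was 0.0614 (GWHGABGR010599, leucine-rich melanocyte differentiation-associated protein-like) and the next were GWHGABGR009924, GWHGABGR016793, GWHGABGR007752 and GWHGABGR019470 (0.0982), over 5051 genes. That profile rests on 7 to 18 reads a library.

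Markers of other cells in the antenna were summed beside these results, and called members are read against the 27.8% of all tested genes called higher under the male label and the 9.03% under the female label (14.3% and 17.7% after median-of-ratios rescaling). Glia gave 18 to 20.2 FPKM over 5 genes under the female label and 32.7 to 35.4 under the male label, with 2 of 4 tested genes called higher under the male label on both scales. Blood cell genes gave 209 to 217 and 263 to 276 FPKM over 16 genes, with 5 of 8 called higher under the male label and 3 after rescaling. Without 3 proteases that are poor markers, left out after values were seen, the blood cell sums were 66.6 to 69.5 and 100 to 112 FPKM. After rescaling, the sums of glia (19.4 to 21.8 and 29.5 to 32) and blood cells (224 to 236 and 237 to 249) were still higher under the male label, the direction opposite to the coreceptor.

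Other marker sums changed their order with the scaling. Fat body genes gave 1547 to 1584 and 1737 to 1820.5 FPKM over 60 genes, many of them named microvitellogenin. Of 39 tested, 19 were called higher under the male label and 2 under the female label, and 13 and 2 after rescaling. Without wrong matches, left out after values were seen, 56 genes gave 1534 to 1567 and 1705 to 1791 FPKM. Of 36 tested, 18 were then called higher under the male label and 2 under the female label, and 12 and 2 after rescaling. Muscle genes gave 258 to 269 and 272 to 277 FPKM over 37 genes, with 2 of 20 called each way, and 1 under the male label against 4 under the female label after rescaling. Both sums were higher under the male label on the deposited scale and higher under the female label after rescaling (1688 to 1705 against 1587 to 1636 for fat body, 277 to 294 against 245 to 254 for muscle). The highest muscle members were a pair of titin genes with means of 106 and 69.3 FPKM. Muscle myosin heavy chain (GWHGABGR012005) was called higher under the male label, at 2.45 ± 0.169 against 6.43 ± 0.648 FPKM (SD, n = 3). The 2 genes called higher under the female label were muscle actin (GWHGABGR020421, 9.05 ± 2.37 against 3.91 ± 1.61 FPKM) and a troponin C (GWHGABGR009145, 6.12 ± 1.69 against 3.17 ± 1.31). Flightin (GWHGABGR000156) was listed at 0 in 2 libraries. Sensillum support cells gave overlapping sums of 42 to 50.1 and 48.8 to 61.7 FPKM over 3 genes, with 0 of 3 called in limma on the deposited scale and 1 higher under the female label after rescaling. The part of any of these cells in the coreceptor's difference was not tested.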

How the data were processed

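Antennal mRNA libraries were made with a strand-keeping kit, per the labels' protocols. The submitters' processing notes list HTSeq, HISAT2, Trimmomatic and R 3.2.0, with no role for any. The genome build is not given in the sources used here. The deposited table gives FPKM per gene, computed by the authors, for the 6 libraries.

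Whole reads were recovered from the FPKM steps within 0.01 read for 16458 of 16458 genes, taking the shortest length of at least 90 bases. Steps fit multiples of a total equally well, so the multiple whose reads summed closest to the total was taken. Lengths came out as multiples of 3 in 87.9% of the 11340 genes above 30 reads. Reads serve for the read counts, shares of reads and counting variation given, for the intervals on reads, for the chi-square between replicates and for 1 alternative. The other fits and the ratios use FPKM.

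The pseudocount was 1. The log2 values were fitted in limma 3.58.1 (R 4.3.3) with labelled sex alone and a trended variance, after checking the step on simulated data. Ratios were tested by 2-sided exact permutation (scipy 1.17.1). Replicates of a label differed by more than read sampling (chi-square per gene of 3.08 to 3.99). The genes and lists were chosen with earlier results of these data known, and wrong matches were marked after values were seen. Named genes were, by rule, the members, the CD36 family, Snmp-1 symbols, Ir25a models, the 5 most abundant receptors, the 3 largest receptor changes each way, pheromone-binding proteins and the 5 nearest profiles per member. No sequences are printed.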

Additional observations from a re-analysis of the deposited data

How the results depend on the processing

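The coreceptor (-1.41 to -1.39 without single libraries) and GWHGABGR005182 (-0.34 to -0.31) kept direction and call in all 15 alternatives, which changed pseudocount, filter, scaling, trend, block, reads or libraries. GWHGABGR000255 was called in 0 of 14 and ranged from -0.18 to 0.10 without single libraries, with a positive sign without female replicate 1 (0.08) or 3 (0.01) and without male replicate 2 (0.10) or 3 (0.04); it cannot be tested with a mean of at least 2 FPKM. Calls over all genes numbered 4274, between 3460 and 3693 without single libraries; 75.5% of them were higher under the male label, 44.7% after median-of-ratios rescaling and 49.2% with quantile normalization. The log2 ratio of coreceptor to summed receptors (1.33 to 1.44 without single libraries) reversed to -1.97 against the median receptor, -0.40 without olfactory receptor 1 and -1.61 without the 2 most abundant, and the ratio to neuron markers (-1.69 to -1.64) moved to -1.58 without wrong matches, the last 2 alternatives being chosen after seeing the data. The ratio to GWHGABGR005182 ranged from -1.10 to -1.06. Ir25a (GWHGABGR003112) changed sign after median-of-ratios rescaling (-0.21), with quantile normalization (-0.04) and without female replicate 3 (-0.01). Same-numbered libraries did not deviate together (correlations of -0.004 to 0.006), so the replicate block, which gave 3845 calls, -1.40 for the coreceptor, -0.33 for GWHGABGR005182 and -1.08, 1.39 and -1.67 for the ratios, pairs numbers only. Depth limits GWHGABGR000255 alone among the members.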
